A study of Mus musculus with 4 samples.

Results

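The genes described here are 62 axon guidance cues and receptors, out of 21627 protein-coding genes on the 19 autosomes and X in the RefSeq annotation of mm10. They were taken by symbol: semaphorins of classes 3 to 7, plexins of types A, B and C, Slit1 to Slit3, Robo1 to Robo3, netrins, Dcc, Unc5a to Unc5d, and the A and B ephrins with their Eph receptors. Sema3g, Ephb4 and Efnb2 were left out of the set. It holds 33 ligand genes and 29 receptor genes.

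Open chromatin over these genes was measured by ATAC-seq, in which a transposase inserts sequencing adapters into accessible DNA. The cells were retinal endothelial cells, isolated by FACS from C57BL/6 mice, with P16 in the titles and 2000 cells per library. There were 2 control libraries and 2 libraries whose genotype is given as Zeb1 knockdown and whose titles carry Zeb1-CKO. The alleles, any driver of recombination and the number of animals per library are not given in the sources used here, so the spread between the libraries of a group may be technical. Zeb1 is a DNA-binding protein with zinc fingers, best known for silencing epithelial genes.

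Guidance cues steer growing axons, and several of the same cues and receptors steer the tip cells that lead a growing vessel. Semaphorins signal through plexins, with neuropilins as co-receptors for most secreted class 3 members. Slits bind Robo receptors, netrins bind Dcc and Unc5 receptors, and ephrins on one cell bind Eph receptors on its neighbour. In endothelium, Unc5b is the best-known netrin receptor, and ephrin A1 with its receptor EphA2 takes part in vessel remodelling.

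The deposited data are lists of peaks, 1 list per library. A locus is the gene body plus 10 kb on each side, and a library held a locus when any peak on its list shared at least 1 bp with it. Values are given in the order of replicates 1 and 2. Knockdown-only means held by both knockdown libraries and by neither control, and control-only is the reverse. Read depth is unknown, so the lists do not separate a closed site from one with few reads. Fewer cells with an open site and a weaker site in each cell cannot be told apart in these pools.

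The lists held 7586 and 13669 peaks for the controls and 13667 and 19873 for the knockdown libraries. Of 16 endothelial marker loci, 12 and 16 were held in controls and all 16 in each knockdown library. Photoreceptor markers followed the replicate number: of 14 loci, 4 and 14 were held in controls and 6 and 14 in knockdown libraries. For 20 inner retinal neuron loci the counts were 2 and 6 in controls and 6 and 8 in knockdown libraries. For 11 loci of Müller glia and astrocytes they were 3, 5, 5 and 5, for 11 of pericytes and smooth muscle 0, 1, 2 and 4, for 10 of leukocytes and microglia 4, 3, 3 and 5, and for 8 of pigment epithelium 3, 4, 3 and 4, for the controls and then the knockdown libraries. The part of other cell types in the results below was not tested.

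Peaks over the guidance loci were more numerous in the knockdown lists, and the lists differed in length in the same direction. The controls held 25 and 52 peaks over the 62 loci and the knockdown libraries 53 and 97. Only 1 peak separated control replicate 2 from knockdown replicate 1, whose lists are of nearly equal length. The group means were 38.5 ± 19.1 and 75 ± 31.1 peaks (SD, n = 2 each), a ratio of 1.95, with p = 0.333 in a two-sided exact permutation test. This is the smallest p that 2 libraries against 2 allow, and 0.5 after Benjamini-Hochberg adjustment over the 3 exact tests made.

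Expressed as a share of each list, the guidance loci took 0.330% and 0.380% of the peaks in controls and 0.388% and 0.488% in knockdown libraries. The groups did not overlap in this share, but control 2 and knockdown 1 lay close together. The windows of all genes took 81.7% and 87.4% of the peaks in controls and 86.5% and 83.4% in knockdown libraries, and there the groups overlapped. The means were 0.355% ± 0.0360 and 0.438% ± 0.0709 (SD, n = 2 each; two-sided exact permutation test, p = 0.333, adjusted 0.5). The difference in means was 36.5 peaks and 0.0830 percentage points. Without knockdown replicate 2 it was 14.5 peaks and 0.0328 points, and without knockdown replicate 1 it was 58.5 peaks and 0.133 points.

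By number of loci, 21 and 34 of the 62 were held in controls and 31 and 50 in knockdown libraries, so the groups overlapped (two-sided exact permutation test, p = 0.667, adjusted 0.667). The shares of the 62 were 33.9% and 54.8% in controls and 50% and 80.6% in knockdown libraries. Of all genes, 35.4% and 53.9% were held in controls and 54.6% and 61.7% in knockdown libraries. Pooled over gene lengths, the guidance loci thus lay near all genes in 3 libraries and above them in knockdown 2. In control 2 and knockdown 1, members under 100 kb were held more often than all genes of that length, and longer members less often (values below). With every list reduced to its 7586 strongest peaks, the length of the shortest, the loci held were 21 and 22 in controls and 23 and 20 in knockdown libraries. The difference in group means was then 0 loci. The peaks over the loci were then 25 and 27 in controls and 30 and 26 in knockdown libraries. Their shares were 0.330% and 0.356% against 0.395% and 0.343%, so the groups overlapped in both measures.

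**Figure D1:**
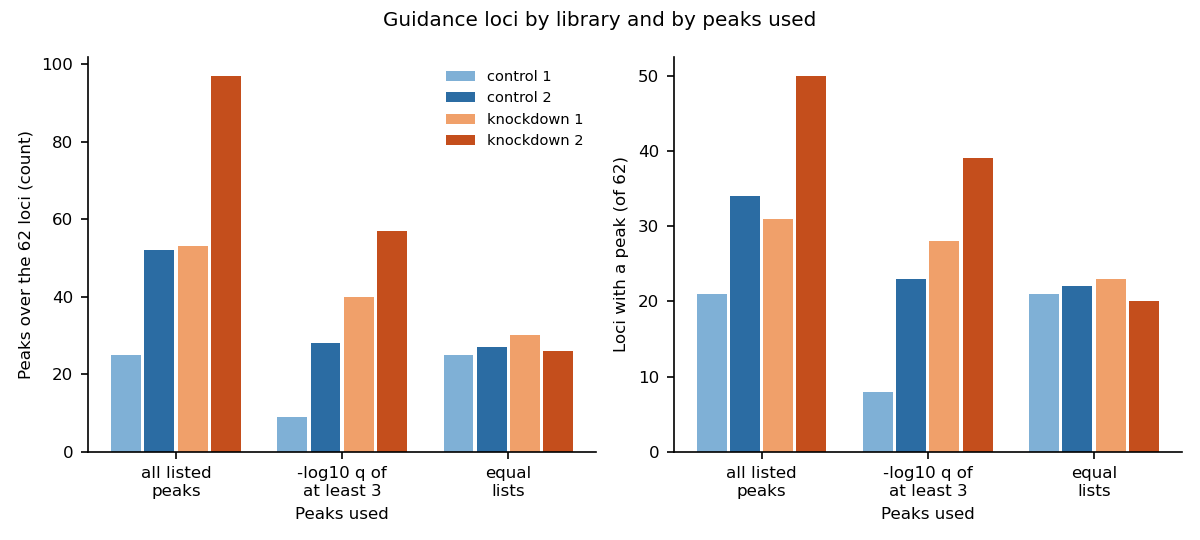
Left, peaks over the 62 guidance loci (count), and right, loci with a peak (of 62), for each of the 4 libraries, with all listed peaks, with peaks of a −log10 q of at least 3, and with equal lists of 7586 peaks. The counts run from 25 to 97 peaks with all listed peaks and from 25 to 30 with equal lists.

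The upstream sequences of the genes whose starts were knockdown-only, and of a pair of genes whose starts were held by all 4 libraries, are printed below. No sequence entered the counts at gene starts. A start was held when a peak lay within 1 kb of it. RefSeq starts on GRCm38.p6 (the same chromosomes as mm10) were listed for 52 of the 62 genes, 68 starts in all. Of the 52, 4 were knockdown-only (7.69%) against 3.99% of the 17273 genes with a listed start, and 0 were control-only against 0.0347%. Starts held by all 4 libraries numbered 6 (11.5%, against 22.6% of all genes), and 27 genes had no peak at a start in any library (51.9%, against 49.0%). No start was listed for Dcc, Efnb3, Ntn1, Plxna1, Plxna4, Sema3b, Sema3f, Sema6a, Slit1 and Unc5d. With a peak within 1 kb of either gene end in place of the start, 1 of these 10, Sema3f, was knockdown-only (background 4.02% of the 4354 genes without a listed start). Each run gives the 250 bases before the start, 5′ to 3′ on the gene's strand, with the E2-box CAGGTG in capitals where it occurs on either strand (the other strand reads CACCTG); this is the sequence Zeb1 is known to bind. The first 4 runs are the knockdown-only starts, at chr6:42373269-42373518 (minus strand), chr4:141300971-141301220 (plus), chr3:89280952-89281201 (minus) and chr9:109095186-109095435 (plus). Epha7 (chr4:28812881-28813130, plus) and Sema6c (chr3:95160170-95160419, plus) follow.
Epha1: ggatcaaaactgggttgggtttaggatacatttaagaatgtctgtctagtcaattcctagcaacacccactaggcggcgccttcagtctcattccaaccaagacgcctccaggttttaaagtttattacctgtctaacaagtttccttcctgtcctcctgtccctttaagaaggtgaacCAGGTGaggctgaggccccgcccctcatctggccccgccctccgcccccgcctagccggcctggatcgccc
Epha2: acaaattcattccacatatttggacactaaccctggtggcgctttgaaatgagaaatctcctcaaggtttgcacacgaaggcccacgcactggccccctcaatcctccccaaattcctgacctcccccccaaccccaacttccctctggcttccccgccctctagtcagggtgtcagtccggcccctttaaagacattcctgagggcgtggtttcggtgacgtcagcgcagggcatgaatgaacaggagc
Efna1: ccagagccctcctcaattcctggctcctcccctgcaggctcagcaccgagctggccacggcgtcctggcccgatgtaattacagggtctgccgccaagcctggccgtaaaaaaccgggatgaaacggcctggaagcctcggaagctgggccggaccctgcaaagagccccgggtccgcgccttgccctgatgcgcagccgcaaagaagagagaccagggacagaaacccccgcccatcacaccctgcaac
Plxnb1: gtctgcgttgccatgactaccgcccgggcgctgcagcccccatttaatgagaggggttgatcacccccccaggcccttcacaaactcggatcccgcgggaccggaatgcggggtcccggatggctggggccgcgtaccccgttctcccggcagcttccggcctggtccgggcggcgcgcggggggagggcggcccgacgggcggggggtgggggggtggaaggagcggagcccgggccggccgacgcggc
Epha7: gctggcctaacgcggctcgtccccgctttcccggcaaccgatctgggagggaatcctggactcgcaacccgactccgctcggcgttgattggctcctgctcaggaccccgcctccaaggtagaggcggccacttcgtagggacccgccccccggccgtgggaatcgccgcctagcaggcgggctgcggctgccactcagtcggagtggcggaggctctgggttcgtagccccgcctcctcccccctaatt
Sema6c: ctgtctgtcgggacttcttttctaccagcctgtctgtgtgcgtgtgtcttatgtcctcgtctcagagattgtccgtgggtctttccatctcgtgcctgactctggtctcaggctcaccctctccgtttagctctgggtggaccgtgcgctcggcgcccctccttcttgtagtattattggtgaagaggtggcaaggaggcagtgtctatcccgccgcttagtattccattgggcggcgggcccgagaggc

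Of these 6 sequences, only that of Epha1 held the E2-box. Over all listed starts of guidance genes, 9 of 68 (13.2%) held it in the 250 bases upstream, against 17.0% of 21044 starts of all protein-coding genes. Among all genes it stood in 23.5% of the 857 starts that were knockdown-only, in 19.0% of those held by no library, in 18.5% of those held by 1 to 3 libraries and in 10.6% of the 4567 held by all 4. A match describes the letters in this window and not a bound site. The guidance starts were rich in CpG, the dinucleotide that marks CpG islands, with a median of 15.5 in the window against 10.0 for all starts, and a median GC content of 64.4% against 55.6%. Guidance starts without a peak kept a median GC content of 62.6%, where starts without a peak over all genes had 49.2%. The Epha1 and Epha2 windows held 9 CpG each, fewer than Efna1 with 16, Plxnb1 with 30, Epha7 with 25 and Sema6c with 15. The Sema6b start held by all 4 libraries had 5.

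Over whole loci, 4 of the 62 genes were knockdown-only (6.45%), against 3.96% of all genes. These were Efna5, Sema3a, Sema6a and Plxnb1. None was control-only, against 0.190% of all genes. Held by all 4 libraries were 13 loci (21.0%, against 32.1%), and 7 had no peak in any library (11.3%, against 34.2%), namely Sema3e, Sema4f, Sema5b, Plxnb3, Epha5, Epha8 and Epha10. Another 13 were held by all libraries but control replicate 1 (21.0%, against 16.3%). The shares of all genes were not matched for gene length. Guidance genes are longer, with a median of 64.9 kb against 17.3 kb, so more sequence was searched for each. Of the 4 knockdown-only genes, 3 were among the 30 members of 100 kb or longer.

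The count of knockdown-only loci depended on the peaks and libraries used. With equal lists of 7586 peaks, 0 loci were knockdown-only (background 1.97%) and Efna4 alone was control-only (background 1.06%). With a −log10 q of at least 3, 9 were knockdown-only (background 4.70%), and these included the 4 above. That cut left lists of 3482 and 9571 peaks in controls and 9567 and 13599 in knockdown libraries. The loci held were then 8 and 23 in controls and 28 and 39 in knockdown libraries. With all listed peaks, the knockdown-only count was 17 without control replicate 2 and 15 without knockdown replicate 1. Leaving out control replicate 1 or knockdown replicate 2 left it at 4.

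**Figure D2:**
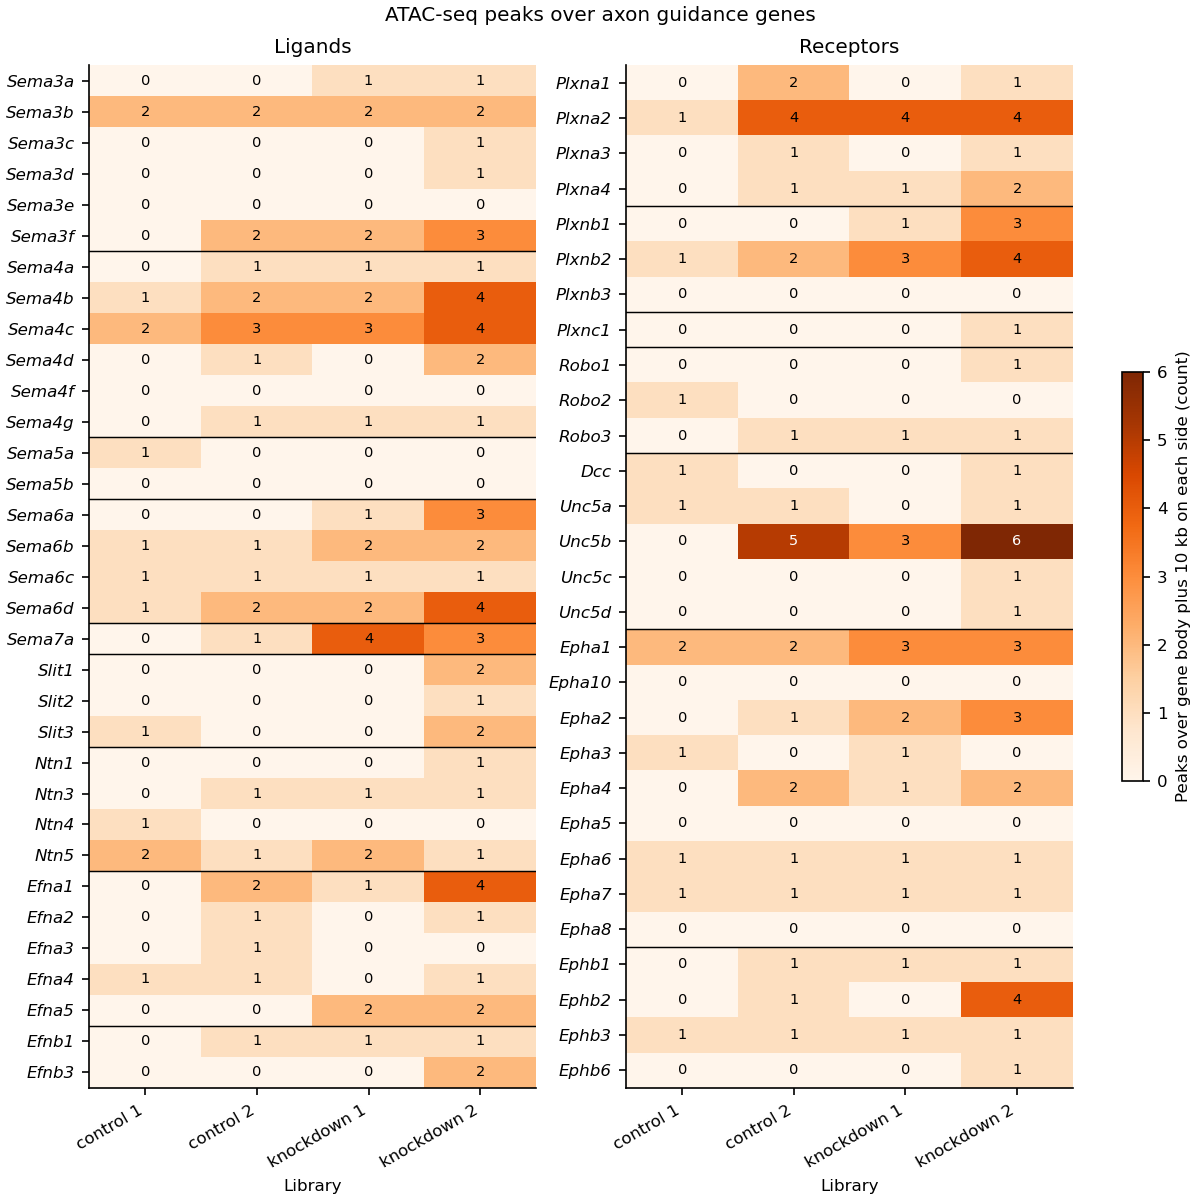
Peaks (count) over the gene body plus 10 kb on each side for the 33 ligand genes (left) and the 29 receptor genes (right) in the 4 libraries, with lines between families. Unc5b reaches 6 peaks in knockdown replicate 2, and 7 genes stand at 0 in every library.

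In 9 genes, each knockdown library held more peaks than either control (14.5%, against 9.42% of all genes), and in 0 genes the reverse was seen (background 0.273%). They were Sema3a, Sema6a, Sema6b, Sema7a, Efna5, Plxnb1, Plxnb2, Epha1 and Epha2. With equal lists of 7586 peaks this count was 0 as well, against 3.14% of all genes. With a −log10 q of at least 3, and the unequal lists that this left, it was 12 (background 7.84%). These backgrounds were not matched for gene length.

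Class 3 semaphorins are secreted cues, mostly repulsive. Sema3f, a ligand that acts through neuropilin 2, had 0 and 2 peaks in controls and 2 and 3 in knockdown libraries. Its 4 regions (peaks of the 4 libraries merged where they touched) included 2 that were knockdown-only, both inside the gene on chromosome 9, at 107695507 to 107696342 and at 107709546 to 107710227. The first ranked 10.0% from the top of the knockdown 2 list and 64.9% from the top of the knockdown 1 list. The second lay within 1 kb of a gene end. No start is listed for Sema3f here. Both peaks of control 2 lay in the flank, in the regions 107678343 to 107678573 and 107679548 to 107680167. The latter region, also held by knockdown 2, lay within 1 kb of an end of Gnat1, a photoreceptor marker gene, so its peaks cannot be assigned to Sema3f.

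Sema3a, the founding repulsive cue of the class, held 0 and 0 peaks in controls and 1 and 1 in knockdown libraries. Both knockdown peaks fell in 1 region inside the gene, at chromosome 5 from 13527242 to 13527507, 130458 bp downstream of the listed start. They ranked 42.1% and 46.1% from the top of their lists. Sema3b, another secreted member, held 2 peaks in every library, all in flanking DNA, and 1 of its 2 regions lay within 1 kb of ends of Hyal3 and Ifrd2. Sema3c and Sema3d held 1 peak each, at their starts, and only in knockdown replicate 2.

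Class 4 semaphorins are membrane proteins that signal mainly through B plexins. Sema4c had the most regions of the class, 5, with 2 and 3 peaks in controls and 3 and 4 in knockdown libraries. A wide region over its start, 1528 bp on chromosome 1 from 36557074 to 36558601, was held by all 4 libraries, and a second at the end of Ankrd39 was too. Its single knockdown-only region (36555008 to 36555423) lay 2134 bp downstream of the start. Sema4b had 1 and 2 peaks in controls and 2 and 4 in knockdown libraries. The strongest of these, within the top 11.6% of every list, lay in the flank at ends of Cib1 and Gdpgp1. Sema4a and Sema4g each had 0 and 1 peaks in controls and 1 and 1 in knockdown libraries, and Sema4d had 0 and 1 against 0 and 2.

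Among the transmembrane class 6 semaphorins, which signal through A plexins, all 4 loci were held by both knockdown libraries. Sema6a held 0 and 0 peaks in controls and 1 and 3 in knockdown libraries. Its knockdown-only region was the widest of all guidance regions, 1580 bp on chromosome 18 from 47368782 to 47370361. It lay inside the gene near the high-coordinate end and ranked 46.7% and 58.6% from the top.

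Sema6d had 1 and 2 peaks in controls and 2 and 4 in knockdown libraries. Its region at chromosome 2 from 124609944 to 124610718 was in all 4 libraries, and 1 further region was knockdown-only, at ranks of 91.2% and 91.9%. Sema6b had 1 and 1 peaks in controls and 2 and 2 in knockdown libraries. The additional region, at 56117434 to 56117725 on chromosome 17, lay within 1 kb of an end of Plin5, a lipid droplet gene. Sema6c was held once in every library, at its start, where the peak ranked 1.62% from the top in control 2 and 41.6% in control 1.

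Sema7a, a membrane-anchored semaphorin that binds plexin C1 and integrins, had 0 and 1 peaks in controls and 4 and 3 in knockdown libraries. Of its 6 regions, 2 were knockdown-only, at 57942900 to 57943290 and at 57972364 to 57973369 on chromosome 9. In knockdown 1 the peaks were among the weakest of the list, at 95.7% to 99.8% from the top. Sema5a was held by control replicate 1 alone, with 1 peak at its start that ranked 93.7% from the top.

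Plexins are the semaphorin receptors. Plxna2 had 1 and 4 peaks in controls and 4 and 4 in knockdown libraries. A region 32048 bp into the gene (chromosome 1, 194651877 to 194652593) was in all 4 libraries, and its start and 2 further intragenic regions were missing from control 1 alone. Thus 3 libraries of both genotypes showed the same 4 regions. Plxna1 had 0 and 2 peaks in controls and 0 and 1 in knockdown libraries, Plxna4 had 0 and 1 against 1 and 2, and Plxna3 had 0 and 1 against 0 and 1. No A plexin region was knockdown-only.

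Plxnb1, a receptor for Sema4d, held 0 and 0 peaks in controls and 1 and 3 in knockdown libraries. The shared peak covered its start in a region of 1341 bp on chromosome 9 from 109094202 to 109095542, at ranks of 66.4% and 68.1%. That region also lies within 1 kb of an end of Ccdc51, so the peak cannot be assigned to 1 gene. Plxnb2 had 1 and 2 peaks in controls and 3 and 4 in knockdown libraries. Its start region on chromosome 15 from 89180597 to 89181230, near an end of Dennd6b, was held by all 4 libraries, but ranked 99.2% from the top in control 1. A second listed start was held by control 2 at 97.2% and by the knockdown libraries at 11.2% and 5.57%. Plxnc1, the Sema7a receptor, held 1 peak in knockdown 2 and 0 elsewhere.

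Slits and their Robo receptors had few peaks. Slit1 held 0 and 0 peaks in controls and 0 and 2 in knockdown libraries, and Slit2 held 0 and 0 against 0 and 1. Slit3 held 1 and 0 peaks in controls and 0 and 2 in knockdown libraries. Each of the 5 Slit peaks of knockdown 2 was absent from the other 3 lists. Robo1 was held by knockdown 2 alone and Robo2 by control 1 alone, with 1 intragenic peak each, although their loci are among the longest of the set. In all, 3 loci were held by control 1 alone, those of Robo2, Sema5a and Ntn4 (4.84%, against 1.23% of all genes). Robo3 had 0 and 1 peaks in controls and 1 and 1 in knockdown libraries, in a region 12173 bp downstream of its start.

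Among netrin receptors, Unc5b had the most regions of any guidance gene, 7, on chromosome 10 between 60752566 and 60831800. It held 0 and 5 peaks in controls and 3 and 6 in knockdown libraries, so control 2 lay between the knockdown libraries. The start (60831346 to 60831800) had a listed peak in every library but control 1, at ranks of 17.1% in control 2 and 15.6% and 10.0% in knockdown libraries. A single region, 23320 bp downstream of the start, was knockdown-only (60807703 to 60808261, ranks of 48.8% and 90.0%). The regions that begin at 60752566, 60759188 and 60760461 lay in the flank, the first within 1 kb of an end of Slc29a3.

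The other netrin receptors held at most 1 peak in a library. Dcc, with a gene body of 1097.6 kb, held 1 and 0 in controls and 0 and 1 in knockdown libraries, at different places. Unc5a held 1 and 1 against 0 and 1, and Unc5c and Unc5d were held by knockdown 2 alone. Of the netrins, Ntn5 held 2 and 1 peaks in controls and 2 and 1 in knockdown libraries, all in its flanks, with 1 of its 2 regions at ends of Car11 and Dbp. Both regions were held by all 4 libraries. The region at Car11 and Dbp crossed the outer edge of the locus, and the replicate 2 peaks in it lay beyond that edge. Those peaks ranked 7.22% from the top in control 2 and 1.76% in knockdown 2. Ntn3 held 0 and 1 against 1 and 1. Its knockdown-only region, 24205402 to 24205777 on chromosome 17, lay in the gene but within 1 kb of an end of Tbc1d24. Ntn1, the classical attractive netrin, was held by knockdown 2 alone and Ntn4, a netrin of basement membranes, by control 1 alone.

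**Figure D3:**
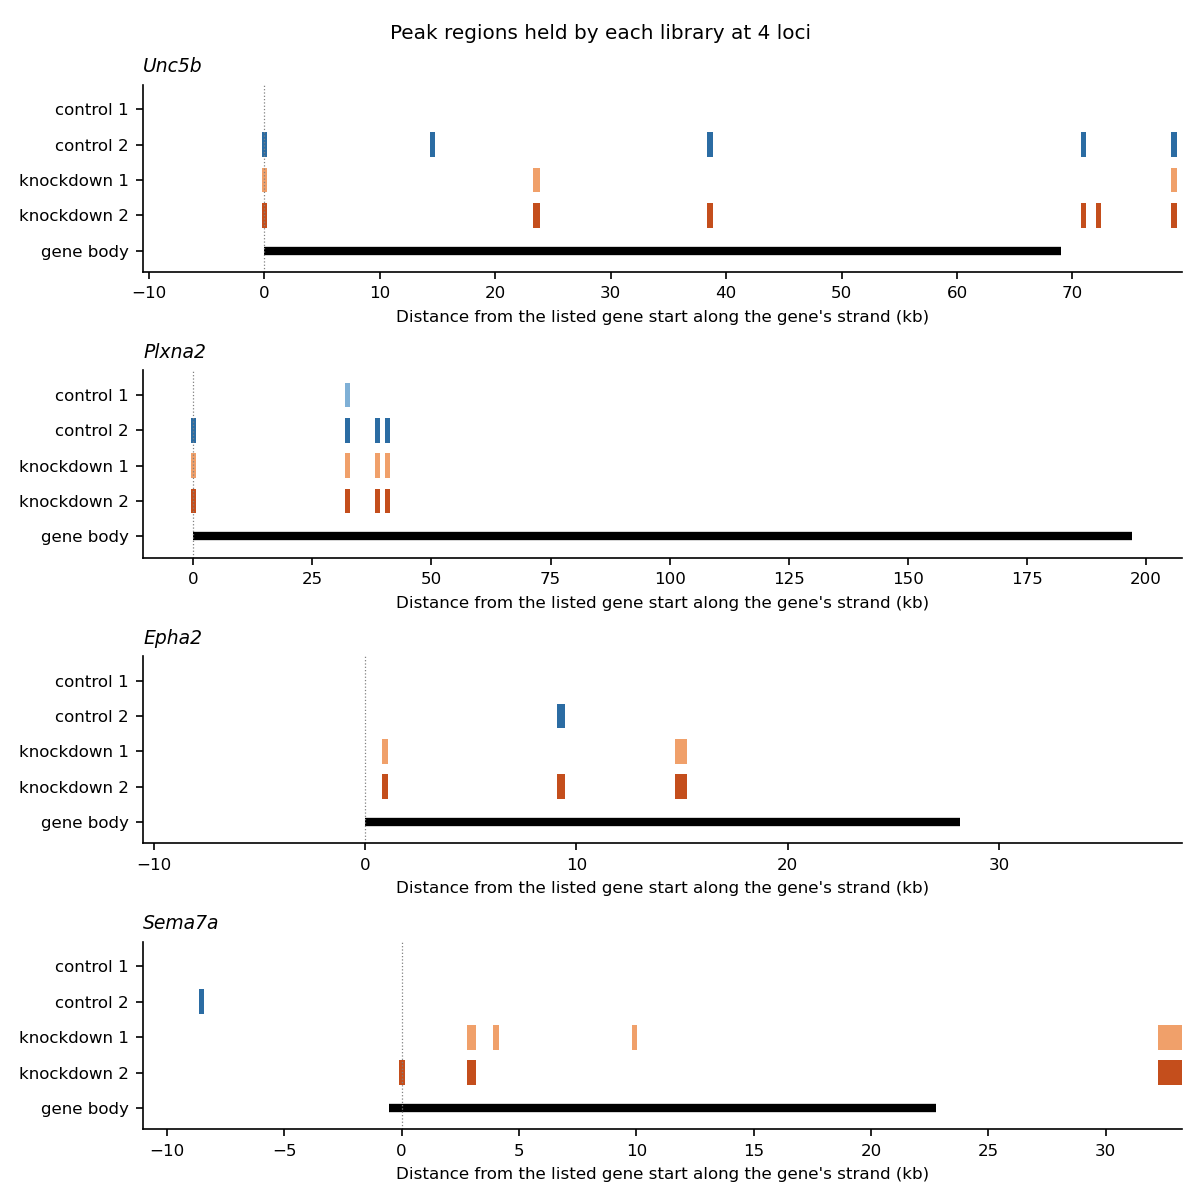
Regions held by each library along Unc5b, Plxna2, Epha2 and Sema7a, as distance in kb from the listed gene start along the gene's strand, with the gene body in black; regions are drawn at a minimum width for visibility. Control 1 shows a region only at Plxna2, and Epha2 shows a pair of regions in both knockdown libraries and in neither control.

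Ephrin A1 and its receptor EphA2 were both knockdown-only at a gene start. Epha2 held 0 and 1 peaks in controls and 2 and 3 in knockdown libraries. Its knockdown-only regions on chromosome 4 were 141302007 to 141302320, 786 bp downstream of the start (ranks of 59.0% and 44.5%), and 141315888 to 141316456, 14667 bp downstream (76.6% and 62.7%). The upstream sequence of Epha2 printed above holds no E2-box.

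Efna1 held 0 and 2 peaks in controls and 1 and 4 in knockdown libraries, so this locus overlapped between the groups. Its start was knockdown-only by different peaks in each library: knockdown 1 held 89279625 to 89280160 and knockdown 2 held 89281118 to 89281444 (chromosome 3). Both were weak, at 91.0% and 98.5% from the top, and no single region at the start was shared. The peaks of control 2 lay in the flanks, 1 of them at an end of Slc50a1.

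Efna5, an ephrin of topographic axon maps, held 0 and 0 peaks in controls and 2 and 2 in knockdown libraries. It was the only guidance locus with more than 1 peak in both knockdown libraries and none in either control. On chromosome 17, 62882896 to 62883306 lay 1579 bp upstream of the start (ranks of 32.3% and 66.4%), just outside the window that counts as the start. The other, 62783111 to 62784157, lay 97160 bp into the gene (49.8% and 96.6%). With equal lists Efna5 was not knockdown-only, since knockdown 2 held no peak there. Efna2, Efna3 and Efna4 held at most 1 peak in a library, Efnb1 held its start in every library but control 1, and Efnb3 was held by knockdown 2 alone with 2 peaks.

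Epha1, an Eph receptor of epithelia, held 2 and 2 peaks in controls and 3 and 3 in knockdown libraries. The additional region covered its start, 42373094 to 42373469 on chromosome 6, and was the best-ranked knockdown-only region at a guidance gene start, at 35.0% and 28.1% from the top. It was also the single start that remained knockdown-only with equal lists (1 of 52, against a background of 1.47%). Its upstream sequence holds the E2-box, as did those of 5 of the 38 guidance starts held by no library (13.2%). A link between the box and this peak was not tested. The strongest peak in the Epha1 window, within the top 1.03% of both knockdown lists, lay at an end of Zyx, a focal adhesion gene, and was in all 4 libraries.

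Epha7 and Ephb3 were open at their starts in all 4 libraries. The Epha7 peak ranked 5.69% and 6.99% from the top in controls and 7.57% and 8.68% in knockdown libraries, the most even of the guidance starts in rank. For Ephb3, an ephrin B receptor, the ranks were 53.7% and 9.31% against 31.4% and 8.84%. Epha4, which binds both ephrin classes, had 0 and 2 peaks in controls and 1 and 2 in knockdown libraries, and its start was missing from control 1 alone. The start of Ephb1 had the same pattern. Ephb2 held 0 and 1 peaks in controls and 0 and 4 in knockdown libraries, and 3 of those 4 were in knockdown 2 alone. Epha3 held 1 and 0 peaks in controls and 1 and 0 in knockdown libraries, and Epha6 held 1 in each, at an end of Arl6.

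The loci merged into 116 regions, and none was shared between guidance genes. Knockdown-only were 18 (15.5%), against 10.1% of all 25263 regions, and control-only 0, against 0.158%. Unlike the 116, the 25263 regions include some outside the windows of all genes. With equal lists the knockdown-only count was 2 (background 5.80%) and 1 region was control-only (background 1.52%). Without control replicate 2 it was 32 and without knockdown replicate 1 it was 53. In all 4 libraries were 17 regions (14.7%, against 20.3%), and 35 were in knockdown replicate 2 alone (30.2%, against 22.6%).

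The positions of these regions were counted by pattern, with no test and no matching count over all genes. Of the 18 knockdown-only regions, 3 were within 1 kb of a listed guidance gene start, 11 elsewhere in a gene body and 4 in a flank. Of the 17 held by all 4 libraries, 6 were at a guidance start, 2 in a body and 9 in a flank. Within 1 kb of an end of another protein-coding gene were 18 of the 116 regions and 4 of the 18 knockdown-only ones, those at Sema6b, Plxnb1, Plxnb2 and Ntn3. Without such peaks, an alternative added after seeing the data, 14 regions, 3 loci and 3 starts were knockdown-only. At the median, the knockdown-only regions ranked below the middle of the knockdown lists, at 64.2% and 63.4% from the top. The regions in all 4 stood at 17.1% and 8.68%, and all guidance regions at 46.7% and 62.4%. For all 2555 knockdown-only regions, inside gene windows or not, the medians were 69.2% and 56.6%.

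**Figure D4:**
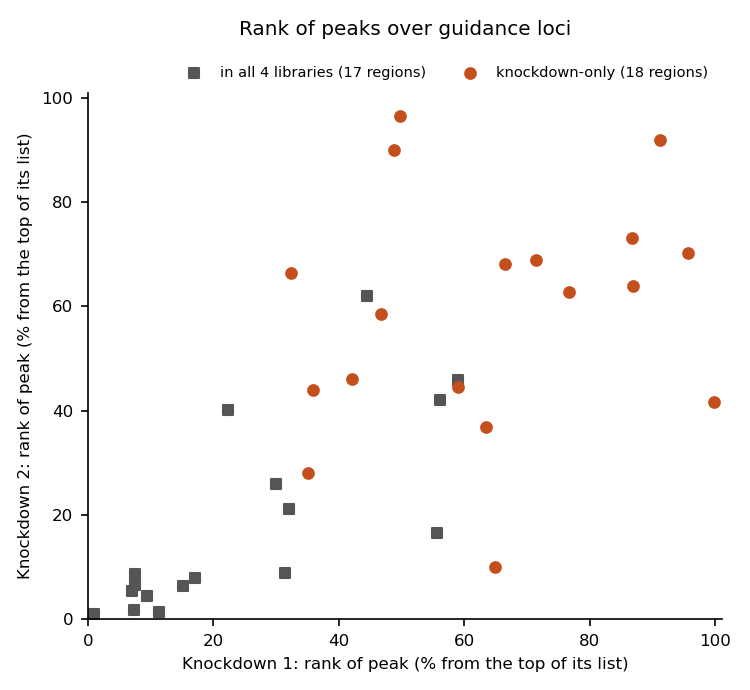
Rank of the peak in knockdown 1 (x axis) and knockdown 2 (y axis), as percent from the top of each list by −log10 p, for the 18 knockdown-only regions and the 17 regions in all 4 libraries over guidance loci. Most regions in all 4 libraries sit near the origin, and the best knockdown 1 rank of a knockdown-only region is 32.3%.

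Guidance genes are long, with a median of 64.9 kb against 17.3 kb for all protein-coding genes and a range of 4.6 to 1555.5 kb. Peaks over the long ones were sparse. Peaks per Mb were counted over the locus, so the 10 kb flanks are part of the Mb. These flanks make up a larger part of the locus at short genes than at long ones. The 30 members of 100 kb or longer held 0.789 and 1.11 peaks per Mb in controls and 1.26 and 3.16 in knockdown libraries. All 2426 genes of that length held 2.29, 4.29, 4.20 and 6.86 peaks per Mb in the same order. The 32 shorter members, by contrast, held 11.2 and 28.3 peaks per Mb in controls and 27.5 and 42.4 in knockdown libraries, against 9.62, 18.4, 18.4 and 23.7 for all shorter genes.

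At the long genes, knockdown replicate 2 held 23 of the 30 members (76.7%), close to the 74.9% of all genes of that length. Control 1, control 2 and knockdown 1 held 10, 9 and 11 of them (33.3%, 30.0% and 36.7%), where all long genes stood at 46.8%, 62.2% and 62.3%. Long members were therefore held less often than long genes in general in these 3 libraries, a description with no test. Of the 32 shorter members, 34.4% and 78.1% were held in controls and 62.5% and 84.4% in knockdown libraries. All shorter genes stood at 34.0%, 52.9%, 53.6% and 60.0% in the same order. Held by knockdown 2 alone were 11 of the 62 loci (17.7%, against 4.53% of all genes), 9 of them long (30.0% of the 30, against 6.88% of all genes of that length). These 11 were Sema3c, Sema3d, Slit1, Slit2, Ntn1, Unc5c, Unc5d, Robo1, Plxnc1, Efnb3 and Ephb6. At gene starts the same pattern was seen for 7 of 52 (13.5%, against 3.99%). Its 35 solitary regions were narrow, with a median width of 268 bp, and ranked at a median of 79.5% from the top of the list. All 5698 regions found in this library alone were much the same, with medians of 255 bp and 75.7%. This library also has the longest list. It held the most loci of inner retinal neurons (8 of 20), of pericytes and smooth muscle (4 of 11) and of leukocytes and microglia (5 of 10), and shared the highest count in the other 4 marker lists. Their part in this pattern was not tested.

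**Figure D5:**
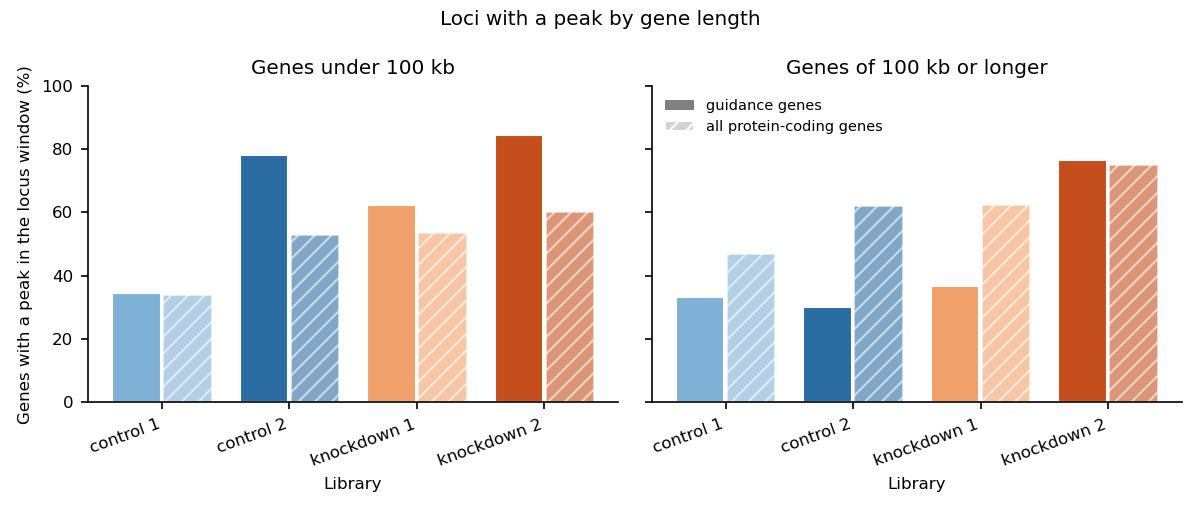
Percent of genes with a peak in the locus window in each library, for genes under 100 kb (left) and of 100 kb or longer (right); solid bars are guidance genes and hatched bars all protein-coding genes. Long guidance genes stand at 30.0% to 36.7% in 3 libraries, where all long genes stand at 46.8% to 62.3%, and at 76.7% in knockdown replicate 2, where all long genes stand at 74.9%.

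Partner genes of the guidance pathway gave the following counts. Of 29 co-receptors and partners, 8 and 18 loci were held in controls and 17 and 24 in knockdown libraries, with 2 knockdown-only (Flrt2 and Met, 6.90% against 3.96% of all genes) and 0 control-only. These are 27.6%, 62.1%, 58.6% and 82.8% of the list, against 35.4%, 53.9%, 54.6% and 61.7% of all genes, for the controls and then the knockdown libraries. Of 56 intracellular effectors, 33 and 46 were held in controls and 44 and 54 in knockdown libraries, with 2 knockdown-only (Vasp and Vav3, 3.57%, near the share of all genes) and 0 control-only. They are 58.9%, 82.1%, 78.6% and 96.4% of that list. At gene starts, 2 of 25 partners were knockdown-only, Met and Plxnd1 (8%), and 2 of 40 effectors, Vasp and Vav3 (5%), against 3.99% of all genes.

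Met is the hepatocyte growth factor receptor, which associates with B plexins, and held 0 and 0 peaks in controls and 1 and 1 in knockdown libraries. Vasp, an actin regulator of the leading edge, held 0 and 0 against 2 and 2, and Vav3, an exchange factor downstream of Eph receptors, 0 and 0 against 1 and 1. Plxnd1, the endothelial plexin for Sema3e, held 0 and 1 peaks in controls and 1 and 3 in knockdown libraries. Its ligand gene Sema3e had no peak in any list.

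The neuropilins Nrp1 and Nrp2 had 1 and 1 against 5 and 1 peaks and 1 and 2 against 3 and 5 peaks. Robo4, an endothelial Robo, had 0 and 2 against 2 and 2. Of the genes left out of the set, the venous receptor gene Ephb4 had 0 and 1 peaks in controls and 1 and 1 in knockdown libraries. Efnb2, its arterial ligand, had 1 and 1 against 3 and 3, and Sema3g had 1 in every library.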

How the data were processed

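Per the submitters' processing notes, the build was mm10, and they name MACS2 2.1.1, bedtools 2.26.0, SAMtools 1.3, Bowtie2 2.3.2, Trimmomatic 0.36 and Picard 2.9.2. Their settings, any shift for the transposase and the filter on the lists are not given in the sources used here. The deposited lists hold 1 broad peak per line for each library, not pooled, with a score, a fold enrichment (a ratio over that library's own background), a −log10 p and a −log10 q, all as deposited by the authors. No q above 0.0969 is listed. These values ordered or thinned the peaks of 1 list at a time, by −log10 p for ranks and equal lists, and were not compared between libraries.

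Overlapping or touching peaks of the 4 libraries were merged (19 autosomes and X). Gene ends came from RefSeq on GRCm38.p6, and starts and sequences from its promoter table. Gene bodies were extended by 10 kb and starts by 1 kb on each side. Group means of 3 quantities were compared by two-sided exact permutation tests over libraries. All other counts are descriptions set beside the same count over all genes or regions, and no gene was tested on its own. The functions recovered planted patterns when tested on simulated data. The alternatives tried were peaks with q up to 0.001, equal lists, each library left out, no flank, 50 kb flanks, 50% coverage, merging within 1 kb, 3 kb around starts and the replicate number as a block.

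Values were given for members that were knockdown-only or control-only, for the members with the most regions in each family, and by counts for the rest; further members were named after their values were seen. The members and lists were chosen with earlier results of these data known. Analyses used Python 3.11.15, numpy 2.4.6, pandas 2.3.3, scipy 1.17.1 and matplotlib 3.10.9.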

Additional observations from a re-analysis of the deposited data

How the results depend on the processing

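The difference between knockdown and control in peaks over the loci (36.5 peaks) and in the share of the list (0.0830 percentage points) kept its sign under every alternative run, with exact permutation p-values from 0.333 to 0.667 and no alternative that could pass. With equal lists these differences fell to 2 peaks and 0.0264 points and the groups overlapped, while with a −log10 q of at least 3 they were 30 peaks and 0.143 points. The difference in loci held was 13 and became 0 with equal lists, the only alternative under which it was not above 0. Without each library in turn these differences ranged from 3.5 to 22.5 loci, from 14.5 to 58.5 peaks and from 0.0328 to 0.133 percentage points. Leaving out 1 library gave 4 to 17 knockdown-only loci, 0 to 3 control-only loci, 18 to 53 knockdown-only regions, 0 to 8 control-only regions and 4 to 11 knockdown-only gene starts. The highest counts for knockdown-only regions and starts came without knockdown replicate 1, for knockdown-only and control-only loci without control replicate 2, and for control-only regions without control replicate 1. Some of these rises follow from the construction, since a group of 1 library needs only that library. With equal lists, 0 loci, 2 regions and 1 start were knockdown-only and 1 locus and 1 region control-only. With a −log10 q of at least 3, which left lists of 3482 to 13599 peaks, 9 loci were knockdown-only. With no flank 9 loci were knockdown-only, and with 50 kb flanks 30 regions, where more sequence was searched. With the replicate number as a block (differences of 10 and 16 loci, 28 and 45 peaks and 0.0582 and 0.108 percentage points within numbers 1 and 2), the exact p was 0.5 for each, the smallest that 2 pairs allow. Over 14239 genes with a peak, the step from replicate 1 to replicate 2 correlated between groups at r = 0.305. The labels do not say what the number shares.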
